A study of Homo sapiens with 2 samples.

Results

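A set of 8 genes for proteins of leukocyte granules, 4 of them at the chymase locus of chromosome 14 (CMA1, CTSG, GZMH and GZMB), 3 at the azurocidin locus of chromosome 19 (AZU1, PRTN3 and ELANE) and MPO on chromosome 17, were described for the histone mark H3K9me3 in KBM7 cells. They were taken by name, and all 8 were found, each with 1 interval, among 35775 symbols outside the mitochondrial chromosome. KBM7 is a near-haploid human cell line from a chronic myeloid leukemia, grown here without any treatment named in the labels. The study holds 1 library made by chromatin immunoprecipitation with an H3K9me3 antibody (Abcam ab8898) and 1 made with IgG. The IgG library was not analysed here, so each value comes from a single library and has neither replicate nor control.

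Trimethylation of lysine 9 of histone H3 is bound by HP1 proteins, marks constitutive heterochromatin and covers many silenced repeats and tandem gene families. Neutrophil precursors make myeloperoxidase, neutrophil elastase (ELANE), proteinase 3 (PRTN3), azurocidin (AZU1) and cathepsin G (CTSG) at the promyelocyte stage and store them in azurophil granules. The serine proteases among them arose by gene duplication and sit in clusters with relatives used by other cells, such as mast cell chymase (CMA1) and the granzymes of cytotoxic lymphocytes (GZMB and GZMH). Azurocidin belongs to the same family but has lost protease activity, and myeloperoxidase, a heme enzyme that makes hypochlorous acid, is unrelated to it. The data measure the histone mark and not transcription, so whether these genes are transcribed in the cells was not measured.

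The chymase locus carried 4 to 6 times more H3K9me3 reads per kb than MPO and the azurocidin locus. The deposited score is the number of reads in a gene interval divided by its length in kb, and intervals given with scores are exact 95% Poisson intervals, which cover counting error only. With reads and lengths summed, the 4 chymase-locus genes held 1273 reads over 12.186 kb, a pooled score of 104 reads per kb (98.8 to 110.4). The 3 azurocidin-locus genes held 320 reads over 18.069 kb, a pooled score of 17.7 (15.8 to 19.8). The chymase locus thus stood 5.90 times above the azurocidin locus (95% exact conditional interval 5.21 to 6.69, counting error only) and 4.08 times above MPO (3.58 to 4.65). The azurocidin locus scored 0.691 times as high as MPO (0.587 to 0.814). The 3 loci lie on chromosomes 14, 17 and 19, outside chromosome 8 and the part of chromosome 15 that KBM7 cells are known to carry in an extra copy. Gene intervals of 1 kb or more had a median score of 34.5 on chromosome 14, 34.5 on chromosome 19 and 25.4 on chromosome 17. All 4 chymase-locus genes lay 2.61 to 3.52 times above the median of their chromosome, MPO at 1.01 times and the 3 azurocidin-locus genes at 0.308 to 0.678 times.

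**Figure D1:**
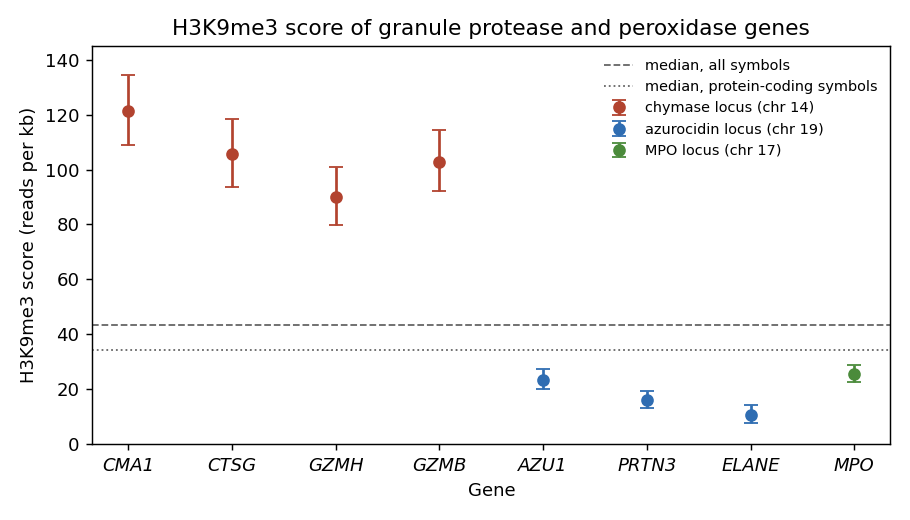
H3K9me3 score in reads per kb (linear axis) of the 8 genes, with exact 95% Poisson intervals as bars and the medians of all and of protein-coding symbols as lines. The 4 chymase-locus genes sit between 90.1 and 121, and the azurocidin-locus genes and MPO between 10.6 and 25.6.

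CMA1, which encodes the chymotrypsin-like protease of mast cells, had the highest score of the 8 genes, 353 reads over 2.913 kb or 121 reads per kb (109 to 135). Its interval runs from 24974559 to 24977471 of chromosome 14 (hg19, minus strand). Peaks covered 71.8% of it. One peak of 900 bp at 24975901 to 24976800 began 671 bp into the gene, counted from the annotated start, and the next, of 1350 bp at 24974401 to 24975750, passed the far end of the gene by 158 bp. Both fall also within the interval RP11-80A15.1, which overlaps CMA1 on the opposite strand and scored 91.6. Without the CMA1 reads, the rest of that interval held 71.0 reads per kb (63.2 to 79.6), and CMA1 stood 1.71 times above it (1.46 to 1.998). This subtraction was added after the data were seen. A read across the border that was counted for CMA1 is taken from the rest, which can raise the ratio.

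CTSG encodes cathepsin G, a neutrophil protease with chymotrypsin-like specificity, and is the only azurophil granule gene of this locus. It held 289 reads over 2.739 kb, a score of 106 (93.7 to 118), on the minus strand of chromosome 14 from 25042728 to 25045466. A peak of 1200 bp at 25043701 to 25044900 covered 43.8% of the gene, from 566 bp after the start to 64.5% of its length. No other gene interval overlaps CTSG, so its reads are not shared with a neighbour. A second peak within 10 kb, 2250 bp wide, lay beyond the 3' end at 25032001 to 25034250.

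GZMB encodes granzyme B, the protease with which cytotoxic lymphocytes start apoptosis in their targets, and it carried the widest peak of the locus and of the 100 kb on each side. The gene held 341 reads over 3.314 kb, a score of 103 (92.3 to 114), from 25100160 to 25103473 on the minus strand. Its 2700 bp peak at 25100401 to 25103100 covered 81.5% of the gene, from 373 bp after the start to 92.7% of its length. GZMH, which encodes the related granzyme H, had no peak although it scored 90.1 (80.0 to 101) on 290 reads over 3.22 kb, from 25075686 to 25078905. The nearest peak, 1500 bp wide at 25069201 to 25070700, lay 4985 bp beyond its 3' end, and one of 450 bp at 25067401 to 25067850 was the other within 10 kb. Both granzyme genes lie inside an interval of 62.052 kb on the opposite strand, from 25064929 to 25126980, which the files name after a genomic clone. The rest of that interval held 64.5 reads per kb (62.4 to 66.6), below GZMB by a ratio of 1.60 (1.42 to 1.78) and below GZMH by 1.40 (1.23 to 1.57). Both ratios carry the limits given for that of CMA1. Granzymes B and H are similar in sequence, and the sources used here do not give how reads that match both were placed.

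**Figure D2:**
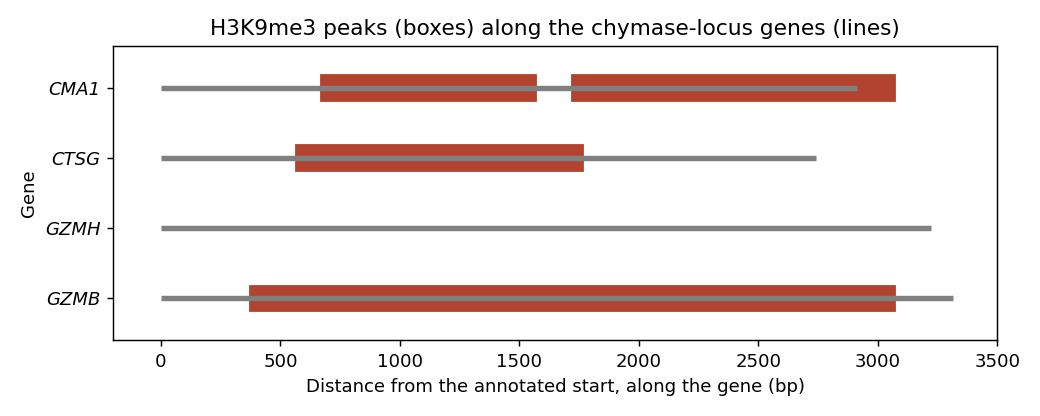
Peaks (boxes) along CMA1, CTSG, GZMH and GZMB (lines), in bp from the annotated start in the direction of transcription. The first box begins 671 bp from the start in CMA1, 566 bp in CTSG and 373 bp in GZMB, and GZMH has none.

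At the azurocidin locus no gene held a peak, and scores were low. AZU1 had 162 reads over 6.921 kb, a score of 23.4 (19.9 to 27.3), on the plus strand of chromosome 19 from 825097 to 832017. PRTN3, the gene of the autoantigen of granulomatosis with polyangiitis, had 116 reads over 7.196 kb, a score of 16.1 (13.3 to 19.3), from 840985 to 848180. ELANE, the gene mutated in cyclic and severe congenital neutropenia, was the lowest of the 8 genes with 42 reads over 3.952 kb, a score of 10.6 (7.66 to 14.4), from 852291 to 856242. In the order of the scores ELANE lay at the percentile 3.55 of 18695 protein-coding symbols, PRTN3 at 15.7 and AZU1 at 32.1. None of the 3 intervals overlaps another gene interval. AZU1 was above PRTN3 by a ratio of 1.45 (1.14 to 1.86) and PRTN3 above ELANE by 1.52 (1.06 to 2.21), so the scores differed beyond counting error also within the locus. These ratios compare the intervals as deposited, and that of AZU1 may include sequence before the RefSeq start of the gene.

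MPO scored 25.6 (22.7 to 28.8) on 284 reads over 11.08 kb, from 56347217 to 56358296 on the minus strand of chromosome 17. It had no peak in its interval and lay at the percentile 36.2 of protein-coding symbols. Within 10 kb lay 3 peaks of 1350, 750 and 1050 bp, the nearest at 56341501 to 56342850, 4366 bp beyond the 3' end of MPO, and all 3 fall within LPO, the gene of lactoperoxidase. On the side of the MPO start the first peak, 300 bp wide at 56467201 to 56467500, was 108904 bp away.

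Set in order, the 8 scores fell into a high and a low group with a wide step between them. Among the 7 pairs of neighbours in that order, CMA1 and CTSG, CTSG and GZMB, GZMB and GZMH, and MPO and AZU1 had ratio intervals that include 1, so these do not differ beyond counting error. The step from GZMH to MPO had a ratio of 3.51 (2.97 to 4.15). In all 16 pairs of a chymase-locus gene with a gene of another locus the interval lay above 1, with ratios from 3.51 for GZMH over MPO to 11.4 for CMA1 over ELANE (8.27 to 16.1). Within the chymase locus it did so in 2 of 6 pairs, CMA1 over GZMH at 1.35 (1.15 to 1.58) and CMA1 over GZMB at 1.18 (1.01 to 1.37). These intervals, 28 in all, were not adjusted for their number.

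Against all symbols, 4 of the 8 genes, those of the chymase locus, scored above 87.0 reads per kb, which is 2 times the median of all symbols, beside 20.8% of all symbols and 12.3% of the 3755 protein-coding symbols whose length lies in the range of the 8 genes, 2.739 to 11.08 kb. The same 4 lay above the median itself, 43.5 reads per kb, which among the 8 genes is the share that a median gives among all symbols by definition, and stands beside 31.7% of the protein-coding symbols of like length. The median of the 8 scores was 57.8, a level between the high and the low genes, and that of the protein-coding symbols of like length was 25.6. A peak was present in 3 of the 8 genes (CMA1, CTSG and GZMB), beside 36.8% of all symbols and 19.8% of the protein-coding symbols of like length. Over the 8 genes this share is close to the first of these backgrounds. A peak in the interval or within 10 kb of it was found for 5 of the 8, the 4 chymase-locus genes and MPO. This stands beside 57.3% of all symbols and 41.8% of those of like length. The count is near the first of these backgrounds and above the second. The start base lay in a peak in 0 of the 8 genes, beside 8.59% of all symbols.

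Promoters were given for 6 of the 8 genes, all but ELANE and MPO, and the sequences around their starts differ between the loci in CpG dinucleotides. RefSeq promoters on GRCh38.p14 run from 250 bases before the start to 50 after it, and their coordinates are not those of hg19 used for the peaks. The AZU1 promoter begins at 827587 and its hg19 interval at 825097, whereas for PRTN3 these are 840749 and 840985. The AZU1 promoter printed here may thus not be that of the start of its scored interval. The 4 chymase-locus promoters held 1 (CMA1), 3 (CTSG), 0 (GZMH) and 1 (GZMB) CpG, with 46.0 to 53.0% G and C, whereas AZU1 and PRTN3 held 9 each, with 66.0% and 66.7%. Over 35116 promoters the medians were 14 CpG and 58.7%. The promoters of the genes whose peaks begin closest to the start, CTSG and GZMB, are printed beside those of AZU1 and PRTN3, 5′ to 3′ on the strand of the gene, with CpG in capitals. CTSG lies at chr14:24576201-24576500 and GZMB at chr14:24634141-24634440, both on the minus strand, and AZU1 at chr19:827587-827886 and PRTN3 at chr19:840749-841048, both on the plus strand.
CTSG: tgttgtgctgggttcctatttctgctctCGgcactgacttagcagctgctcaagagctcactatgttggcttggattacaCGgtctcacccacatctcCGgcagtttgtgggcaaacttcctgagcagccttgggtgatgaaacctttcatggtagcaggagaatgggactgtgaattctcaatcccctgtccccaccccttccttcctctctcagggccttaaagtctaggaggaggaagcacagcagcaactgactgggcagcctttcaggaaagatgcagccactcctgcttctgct
GZMB: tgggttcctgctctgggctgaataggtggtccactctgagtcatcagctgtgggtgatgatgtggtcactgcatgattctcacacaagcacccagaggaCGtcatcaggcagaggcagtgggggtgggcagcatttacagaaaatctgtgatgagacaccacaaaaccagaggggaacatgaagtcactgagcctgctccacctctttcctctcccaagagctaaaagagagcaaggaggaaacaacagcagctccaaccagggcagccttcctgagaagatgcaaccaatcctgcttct
AZU1: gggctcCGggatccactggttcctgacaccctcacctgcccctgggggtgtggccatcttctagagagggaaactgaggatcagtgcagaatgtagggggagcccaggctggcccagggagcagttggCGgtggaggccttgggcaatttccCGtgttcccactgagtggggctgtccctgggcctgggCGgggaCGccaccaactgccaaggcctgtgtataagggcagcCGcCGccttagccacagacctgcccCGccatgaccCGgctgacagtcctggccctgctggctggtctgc
PRTN3: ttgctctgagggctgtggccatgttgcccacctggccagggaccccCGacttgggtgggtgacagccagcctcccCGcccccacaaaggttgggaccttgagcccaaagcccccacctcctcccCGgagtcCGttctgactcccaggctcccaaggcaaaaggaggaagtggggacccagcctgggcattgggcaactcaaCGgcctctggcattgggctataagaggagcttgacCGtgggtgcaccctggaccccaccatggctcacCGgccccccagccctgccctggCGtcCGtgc
These 6 windows thus held fewer CpG and less G and C at the chymase locus, where scores were higher, than at the azurocidin locus. Within the chymase locus this order did not hold. GZMH, the lowest scorer there, had 0 CpG and 46.0% G and C, and CTSG had 3 and 53.0%. Base composition was not measured over the gene intervals in which reads were counted, and its part in the counts was not tested.

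Motifs of factors known to act on granule genes were looked up on both strands of the 6 promoters. GAGGAA, the core bound by the myeloid factor PU.1, was found in 4 of 6 promoters (CMA1, CTSG, GZMB and PRTN3), and 27.9% of all promoters hold it. On the strand of the gene it began 16 bases before the start in CTSG, 14 before it in GZMB and 88 before it in PRTN3. In CMA1 the only match lay on the other strand, 41 bases after the start. These protease genes arose by duplication, so their promoters are not independent cases to set against the share of all promoters. TGTGGT, the core bound by RUNX factors, was in CMA1 and GZMB (13.1% of all promoters), GCAAT, a core of C/EBP factors, only in AZU1 among the 6 (24.5%), and TATAA in CMA1, GZMH, AZU1 and PRTN3 (20.4%). The motifs do not overlap one another in their letters, except that a TATAA match on one strand of CMA1 overlaps one on the other. Such matches are descriptions of these windows and not sites.

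Peaks ran through and beyond the chymase locus, while the azurocidin locus lay in a long stretch without any. From the first base of CMA1 to the last of GZMB, 128.915 kb, the chymase locus held 10 peaks that covered 10.1% of the sequence, beside 5.18% of chromosome 14. Of these peaks 4 overlapped a gene of the 4 and 6 lay between genes. With 100 kb on each side there were 23 peaks of 300 to 2700 bp (median 1050 bp), and 7.98% of the window lay in peaks. The nearest outside the locus were a 2250 bp peak at 24959551 to 24961800, 12758 bp away, and a 1200 bp peak at 25125901 to 25127100, 22427 bp away. Wider windows gave shares on either side of that of the chromosome, with 5.70% for flanks of 250 kb, 4.03% for 500 kb and 6.11% for 1000 kb.

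The azurocidin locus lay in a stretch of 158.55 kb without a peak, from 779851 to 938400 of chromosome 19. This is number 52 by length of the 4964 gaps between peaks on chromosome 19, where the median gap is 1.65 kb. A gap that holds the whole locus of 31.146 kb cannot be shorter than it, so part of this rank was fixed beforehand. The stretch holds 10 whole gene intervals with scores of 9.35 to 47.9 (median 21.5). The peaks at its ends were 750 bp wide at 779101 to 779850, 45246 bp from AZU1, and 300 bp wide at 938401 to 938700, 82158 bp from ELANE. The nearest peak was as far as that of AZU1, or farther, for 17.9% of all symbols and 27.8% of protein-coding symbols of like length. This cutoff is the smallest distance among the 3 azurocidin-locus genes, so all 3 meet it by construction. With 100 kb flanks 4.80% of the window lay in peaks, beside 17.8% of chromosome 19. MPO, with 3 other intervals, lay in a gap of 124.35 kb, number 133 of 3452 on chromosome 17. The same limit holds for this rank, since MPO itself is 11.08 kb long. With 10 kb flanks 10.1% of the MPO window lay in peaks, those of LPO, and with 100 kb flanks 2.17%, beside 6.40% of the chromosome. The side on which MPO lay of its chromosome turned with the window, since flanks of 250, 500 and 1000 kb gave 8.80%, 6.92% and 5.98%.

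**Figure D3:**
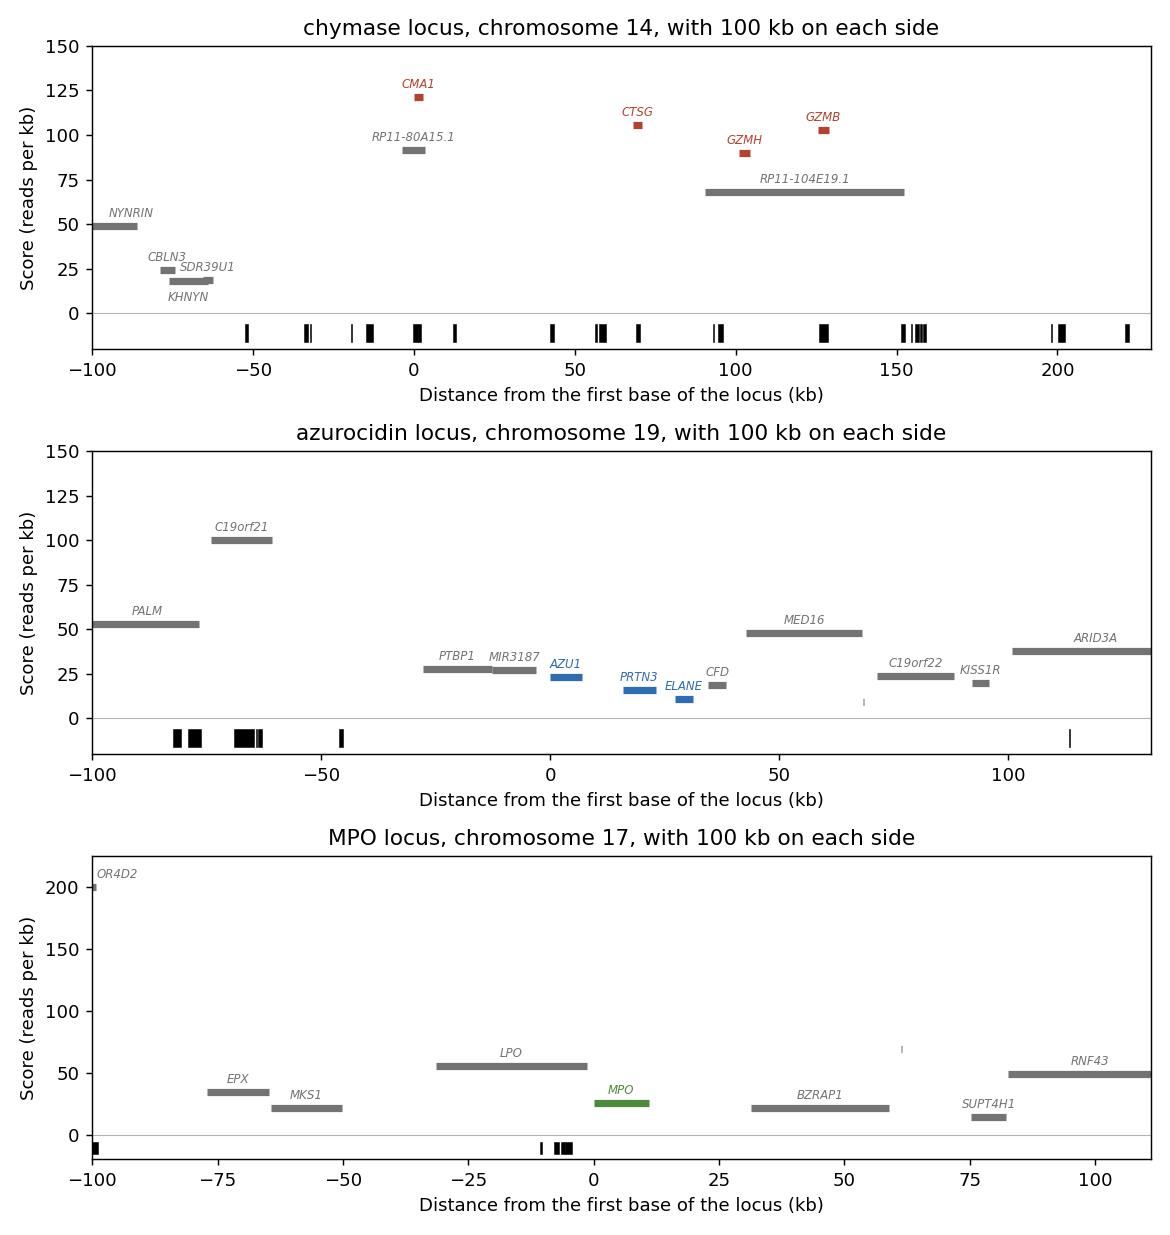
Gene intervals (bars at the height of their score in reads per kb; genes described here in colour, others in grey) and peaks (black boxes under the zero line) around the 3 loci, by distance in kb from the first base of each locus. Peaks run across the chymase locus, and the nearest to the azurocidin locus lie 45246 and 82158 bp away; the axis of the MPO panel reaches higher.

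**Figure D4:**
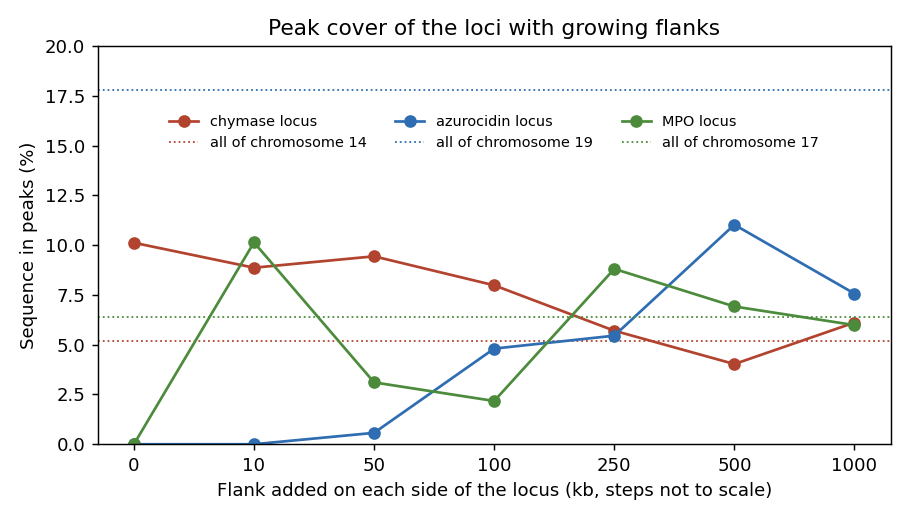
Percent of the sequence in peaks for each locus with flanks of 0 to 1000 kb on each side (points; the widest azurocidin window is cut at the chromosome end), and for the whole of each chromosome (dotted lines). The chymase locus has 10.1% without flanks, 4.03% with 500 kb and 6.11% with 1000 kb, and the azurocidin locus has 0% without flanks, 11.0% with 500 kb and 7.56% with 1000 kb.

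Genes next to the loci were scored in the same way, and their peaks stand beside the 36.8% of all symbols that had one. On the lower-coordinate side of the chymase locus 4 genes lay within 100 kb, none with a peak: NYNRIN scored 48.9 (45.9 to 52.0), CBLN3, a cerebellin, 24.2 (19.8 to 29.2), SDR39U1 18.5 (14.0 to 23.9) and KHNYN 17.8 (15.5 to 20.4). Within 250 kb on that side 15 intervals of 1 kb or more had scores of 15.7 to 48.9, all under those of the chymase-locus genes. Between the last of these genes, SDR39U1, and CMA1 lay 6 peaks in whole or in part, and the first began 10089 bp past SDR39U1. On the other side no further gene interval lies within 100 kb. Within 100 kb of the locus the only other intervals were the 2 that overlap its genes, and both had peaks.

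Around the azurocidin locus 3 of 10 other intervals had a peak, a share near the 36.8% of all symbols. C19orf21 scored 100.2 (94.9 to 106), with 42.1% of its length in peaks and the widest peak of the window, 4350 bp at 756001 to 760350. PALM, which encodes the membrane protein paralemmin, scored 53.1 (50.9 to 55.4) and ARID3A, a DNA-binding factor of B cells, 38.1 (36.3 to 39.9). MED16, a subunit of the Mediator complex, scored 47.9 (45.2 to 50.6) and had no peak. CFD, which encodes the serine protease complement factor D and is the next gene after ELANE, scored 18.5 (14.5 to 23.3), and KISS1R, a peptide receptor, 19.6 (15.3 to 24.7). A copy of the small RNA U6 had 1 read. Around MPO 3 of 8 other intervals had a peak, also near the share of all symbols. OR4D2, an olfactory receptor whose whole interval lay in a 1650 bp peak at 56246701 to 56248350, scored 200.2 (172 to 231), LPO 55.1 (52.5 to 57.8) and RNF43, a ubiquitin ligase of the WNT pathway, 48.8 (47.1 to 50.5). MIR142, the gene of a microRNA of blood cells, scored 69.0 (25.3 to 150.1) on 6 reads. MKS1 scored 21.6 (19.2 to 24.2), BZRAP1 21.5 (19.8 to 23.3) and SUPT4H1, a transcription elongation factor, 14.0 (11.3 to 17.0). EPX, the eosinophil relative of MPO in the same cluster, had 34.3 reads per kb (31.1 to 37.7) and, like MPO, no peak.

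Other granule genes did not share 1 level with either locus. Their counts of genes with a peak stand beside 36.8% of all symbols. The 13 further genes of azurophil granules had a median score of 27.5, with 5 above that of all symbols and 5 with a peak. DEFA4, a defensin on chromosome 8, which is present in an extra copy, led with 201 (184 to 220), followed by RNASE3, a ribonuclease also of eosinophils, with 101 (81.9 to 123) and BPI, which binds bacterial lipopolysaccharide, with 90.6 (88.5 to 92.7), and the lysosomal sulfatase ARSA was lowest with 11.4 (7.97 to 15.8). PRSS57, a further neutrophil serine protease encoded on chromosome 19, had a peak and a score of 54.4 (49.9 to 59.2), above each gene of the azurocidin locus. CTSC, whose product removes the propeptides of these proteases, scored 27.5 (26.0 to 29.1). The 16 genes of specific and gelatinase granules had a median score of 34.0, with 6 above that of all symbols and 3 with a peak. CHIT1, a chitinase, was highest at 84.5 (82.2 to 86.8), LTF, lactoferrin, followed at 77.4 (75.0 to 79.9) and CEACAM8, an adhesion molecule, at 70.3 (66.0 to 74.7), and ORM1, the plasma protein orosomucoid, was lowest at 21.6 (16.99 to 27.2). The 6 lymphocyte granule genes had a median score of 47.0, with 4 above that of all symbols and 2 with a peak. These 2 were the granzyme genes of chromosome 5, GZMK at 83.8 (78.3 to 89.6) and GZMA at 78.6 (72.5 to 85.2). GZMM, the granzyme gene of chromosome 19, had 48.2 (42.8 to 54.1), also above each gene of the azurocidin locus. NKG7, a membrane protein of cytotoxic granules, had 12.0 (6.37 to 20.5).

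Genes whose products inhibit the granule proteases or regulate their genes are given by role. The 11 inhibitors had a median score of 59.5, with 8 of them above that of all symbols and 8 with a peak. PI3, elafin, an inhibitor of elastase and proteinase 3, scored 193 (172 to 215), SLPI, which inhibits elastase and cathepsin G, 128 (114 to 143), SERPINA3, the plasma inhibitor of cathepsin G and chymase, 97.0 (93.6 to 100.4), and SERPINB9, the intracellular inhibitor of granzyme B, was lowest at 29.8 (27.2 to 32.6). The 13 regulators of myeloid genes had a median score of 18.6, with 3 above that of all symbols and 5 with a peak. IRF8, a factor of monocytes and B cells, was highest at 83.8 (80.2 to 87.6), followed by LEF1, a WNT-pathway factor, at 68.0 (66.6 to 69.5) and RUNX1 at 60.6 (60.1 to 61.0). The RUNX1 value is an average over an interval of 1196.95 kb. CEBPB was lowest at 7.62 (4.17 to 12.8). CEBPE, the factor of late granulocyte genes, scored 19.9 (14.6 to 26.5). Of all symbols 36.8% had a peak.

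**Figure D5:**
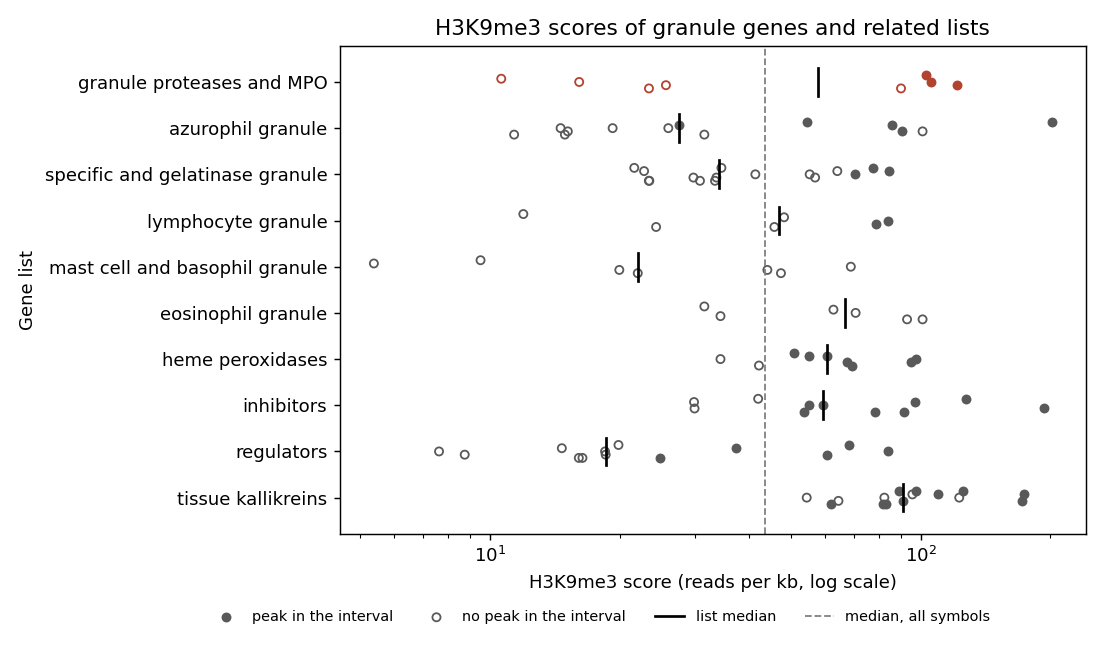
H3K9me3 score in reads per kb (log axis) of each gene of the lists; filled points have a peak in the interval, open points none, black bars are list medians and the dashed line is the median of all symbols, 43.5. The granule proteases and MPO form 4 points from 90.1 to 121 and 4 from 10.6 to 25.6.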

How the data were processed

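H3K9me3 chromatin immunoprecipitation and sequencing was done on formaldehyde-crosslinked KBM7 chromatin sheared to a target of 300 bp, per the labels' protocols. Bowtie2, MACS and hg19 are named without versions or roles, per the submitters' processing notes, and the sources used here give neither read filters nor the use made of the IgG library. The authors deposited a read count per gene interval, not normalised, and a score, the coverage signal in reads per kb. The score equals reads divided by length within 3.03e-06 in all 40237 intervals and is corrected for neither depth, IgG nor copy number. The reads sum to 78512210 over intervals, some of which share reads, and the depth of the library is not given. The deposited peak list gives 126965 peaks on a 150 bp grid, with no height or significance.

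The highest-scoring interval stood for a symbol; overlap meant 1 bp or more. Poisson and conditional binomial intervals (95%) cover counting error only, and reads are not independent molecules. For percents in peaks, Clopper-Pearson intervals (95%) were taken over the 150 bp bins of a window, and neighbouring bins of a peak are not independent. No p-value can be had from a single library, and no gene of like pattern across samples could be named. Gene types (18695 protein-coding symbols) and promoters came from RefSeq tables on GRCh38.p14, the types for names only; 6 of the 8 genes had a promoter there. The genes and lists were chosen with earlier results of these data known. Text names the 8 genes, all neighbours within 100 kb with a peak, the 3 highest and 3 lowest neighbours, and the 3 highest and the lowest of each list; PRSS57, CTSC, GZMM, CEBPE, CFD, MED16 and EPX, where outside that rule, were chosen after their values were seen. Lists were those of azurophil, specific and gelatinase, lymphocyte, mast cell and basophil, and eosinophil granules, heme peroxidases, inhibitors, regulators and tissue kallikreins. Motifs were chosen after the data were seen. The tools were scipy 1.17.1, pandas 2.3.3 and numpy 2.4.6 under Python 3.11.15, and figures were drawn with matplotlib 3.10.9.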

Additional observations from a re-analysis of the deposited data

How the results depend on the processing

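The chymase locus scored above the azurocidin locus and MPO in every alternative tried. Scaled by the median of each chromosome, the pooled score was 116 at the chymase locus and 38.6 at MPO, with log2 ratios of 1.59 for the chymase locus over MPO and -0.97 for the azurocidin locus over MPO, against 2.03 and -0.53 unscaled. With 0.3 kb added to each length the chymase locus scored 95.1. Without AZU1 the azurocidin locus scored 14.2, with log2 ratios of 2.88 for the chymase over the azurocidin locus (2.56 with it) and -0.85 for the azurocidin locus over MPO. Intervals extended by 10 kb held a peak for 5 genes instead of 3. With flanks of 50 kb in place of 100 kb, peaks covered 9.44% of the chymase and 0.572% of the azurocidin window, and with 250 kb 5.70% of the chymase and 8.80% of the MPO window. The cause was not tested beyond the wider or narrower windows themselves. In the other 46 alternatives the value stayed within its counting interval, or within 1.5 times for counts of genes. For percents in peaks the interval was that over 150 bp bins, which are not independent. The alternatives with the longest interval of each symbol could not move, because each of the 8 genes has 1 interval. ELANE rests on 42 reads, the fewest of the 8 genes.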

Other observations

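Serine protease and peroxidase genes elsewhere gave further levels for these families. Their counts of genes with a peak stand beside 36.8% of all symbols. The 15 tissue kallikrein genes, a tandem family of serine proteases on chromosome 19, had a median score of 91.0, with all 15 above that of all symbols and 10 with a peak. KLK3, which encodes prostate-specific antigen, scored 174 (163 to 185), KLK15 172 (161 to 182) and KLK13 125 (118 to 133), and KLK7 was lowest at 54.4 (49.3 to 59.9), above each gene of the azurocidin locus on the same chromosome. The 9 heme peroxidase genes other than MPO had a median score of 60.5, with 7 above that of all symbols and 7 with a peak. PXDNL was highest at 97.7 (96.8 to 98.6), but lies on chromosome 8, present in an extra copy for which scores are not corrected. DUOX2 followed at 94.8 (90.7 to 99.0) and DUOX1 at 69.2 (66.5 to 72.0), and EPX was lowest at 34.3 (31.1 to 37.7), still above MPO.

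Of the genes that accompany CMA1 in mast cell and basophil granules, 0 of 7 had a peak, beside 36.8% of all symbols. Their median score was 22.05, with 3 above that of all symbols. MS4A2, a subunit of the IgE receptor, scored 68.9 (63.1 to 75.0), CPA3, a carboxypeptidase, 47.4 (45.0 to 49.8) and HDC, which makes histamine, 44.1 (41.5 to 46.8). TPSAB1, a tryptase gene, was lowest at 5.38 (2.58 to 9.89) on 10 reads; tryptase genes are near-identical copies, so reads that could not be placed cannot be told apart from a lack of the mark. The 6 eosinophil granule genes had a median score of 66.7, with 4 above that of all symbols and 0 with a peak. RNASE3 was highest at 101 (81.9 to 123), then CLC at 93.0 (85.9 to 100.6) and PRG2 at 70.7 (62.5 to 79.5). RNASE2 was lowest at 31.5 (21.4 to 44.7). The nearest peak lay only 243 bp from RNASE3 and 445 bp from CLC. RNASE2, RNASE3 and EPX are also members of the azurophil or heme peroxidase lists, so the lists are not separate sets.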
